A study of Mus musculus with 13 samples.

Results

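The 6 genes described here encode proteins that turn the detection of viral RNA or bacterial cell-wall fragments into activation of NF-kB and of interferon genes. They are Ddx58 and Trim14 of RNA sensing, Ripk2 of peptidoglycan sensing, the MAP3 kinases Map3k7 and Map3k8, and the nuclear cofactor Akirin2. They were chosen by name, with earlier results of these data known, from stretches of the genome where gene names match the counts. Each library held 56923 gene IDs, and all 6 genes passed the filter on low counts. CD45-positive cells were sorted from tumours that EL4 cells formed under the skin of mice. EL4 is a T lymphoma line that itself carries CD45, so the sort can hold tumour cells as well as host leukocytes. In 7 libraries, called vector, the tumours grew from EL4 cells carrying a vector, and in 6, called PSGL1_KO, from EL4 cells with a knockout of PSGL1, the selectin ligand encoded by Selplg. In both groups each mouse, aged 6 to 8 weeks, received 500000 cells, and tumours were taken about 20 days later. The knockout was in the injected cells, while the mouse strain, the method of knockout and whether the line was 1 clone are not stated. The labels do not tie a library to a single animal, and p-values here measure only the spread between these libraries.

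RIG-I, the product of Ddx58, binds RNA that carries a free triphosphate end and signals through the mitochondrial adaptor MAVS to kinases that activate interferon regulatory factors and NF-kB. NOD receptors, which sense peptidoglycan fragments, signal through the kinase RIPK2, and both RIPK2 and the Toll-like and TNF receptors pass through TAK1, the product of Map3k7, to the IkB kinases. Those kinases release NF-kB from its inhibitors and also free TPL2, the product of Map3k8, to drive the ERK pathway, which macrophages use for cytokine output. T cells, B cells, macrophages and stromal cells all express parts of this machinery.

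Promoter sequence from RefSeq on GRCm38.p6 was at hand for 3 of the 6 genes, Ddx58, Map3k7 and Akirin2. Shown are the 250 bases before the start site of the 2 genes in which a searched motif was found, the RNA sensor and the kinase, 5′ to 3′ on the strand of the gene, with the matching bases in capitals. Motifs of 3 kinds were searched on both strands, chosen after the sequences had been seen: the NF-kB kB consensus, the core of interferon regulatory factor sites, AANNGAAA, in which N is any base, and the longer core of interferon-stimulated response elements, every match of which contains the shorter core.
Ddx58, chr4:40239826-40240075, minus strand: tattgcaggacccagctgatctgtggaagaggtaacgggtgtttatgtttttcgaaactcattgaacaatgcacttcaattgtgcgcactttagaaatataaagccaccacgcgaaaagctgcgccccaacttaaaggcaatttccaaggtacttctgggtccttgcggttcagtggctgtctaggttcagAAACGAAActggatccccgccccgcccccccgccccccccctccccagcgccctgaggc
Map3k7, chr4:31963857-31964106, plus strand: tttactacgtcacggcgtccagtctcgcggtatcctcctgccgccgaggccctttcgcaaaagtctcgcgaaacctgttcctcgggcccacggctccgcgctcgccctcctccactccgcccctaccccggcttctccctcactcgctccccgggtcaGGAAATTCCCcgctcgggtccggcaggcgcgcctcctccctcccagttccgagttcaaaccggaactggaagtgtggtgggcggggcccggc
The match in Ddx58 is the shorter interferon core, AAACGAAA, from base 59 to base 52 before the start, and 21.3% of 32851 promoter windows of this length held that core. Map3k7 held 1 match to the kB consensus, GGAAATTCCC, from base 92 to base 83 before the start and read as the consensus on the opposite strand, which 3.9% of the windows held. Neither held the longer interferon core, found in 2.98% of windows, and the Akirin2 window (chr4:34550365-34550614) held none of the motifs. That window ends upstream of the GENCODE M21 start of Akirin2 at 34550937, so the bases next to that start were not searched. All matches are of letters only.

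Libraries held 3710817 to 5712566 counts over gene IDs. Names were used only for IDs in 4 stretches of the genome, on chromosomes 4, 6, 15 and 18 (name-checked IDs), because common housekeeping genes elsewhere were near 0: over 207 of them the median was 0.466 CPM, a count divided by its library's total and put on a common scale. Inside the stretches the 7 housekeeping genes, which the rule for a stretch required to reach 20 CPM, had 94.5 CPM or more. All 7 lie on chromosomes 4 and 15, so the stretch that holds Map3k8 on chromosome 18 and the one on chromosome 6 contain none. The stretches depended on model settings that were changed with their outcome in view: the setting used was the fifth tried, and under the third Trim14 lay outside. The ID of Selplg lay outside and had 3 to 63 counts per library, and that of Ptprc, which encodes CD45, also lay outside, so neither the knockout nor the sort could be checked. Libraries fell into 2 sets by the first digit of the number in their file name, with 2 vector and 2 PSGL1_KO libraries at 3, and 5 and 4 at 7, and what the number stands for is not given. Vector replicate 5 and PSGL1_KO replicate 3 stood apart, with the highest mitochondrial share of counts in their groups (34.5% and 17.8%) and the lowest summed stromal markers (744 and 843 CPM).

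Per kilobase of merged exons, the 6 genes spanned a wide range of levels. In vector libraries Akirin2 was the most abundant at 97.2 ± 6.28 TMM-normalised CPM per kb (SD, n = 7), followed by Map3k7 at 56.6 ± 8.84, Map3k8 at 23.9 ± 3.97, Ripk2 at 21.1 ± 1.07, Ddx58 at 11.7 ± 2.50 and Trim14 at 3.50 ± 0.98. TMM is the scaling that evens out libraries by the bulk of their genes. Libraries of Map3k8 (18.0 to 29.9) and Ripk2 (19.3 to 22.3) overlapped and were not told apart by range in the vector group, whereas no other neighbours in this order overlapped. The order was the same in PSGL1_KO libraries, again with overlap only between Map3k8 (26.3 to 49.4) and Ripk2 (18.2 to 27.3). Compared within each library, Map3k8 was above Ripk2 in every PSGL1_KO library and in every vector library but replicate 6. Lengths are from GENCODE M21, whose ID versions are lower than those in the files, so a level per kb is approximate.

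Map3k8 was the gene of the 6 whose difference passed in the main test and in every alternative run. Ddx58 and Trim14 were also higher in PSGL1_KO but passed only in some fits, and Ripk2, Map3k7 and Akirin2 did not pass. Differences were tested with edgeR's quasi-likelihood test with the file number as a covariate and Benjamini-Hochberg adjustment over the 11188 IDs tested. At an adjusted p below 0.05, 3 of 6 genes were higher and 0 lower. Of all IDs tested 13.5% were higher and 11.6% lower, and among the 428 name-checked IDs 28.5% were higher and 9.35% lower, so such calls were common. With the group as the only term 1 of 6 genes was higher and 0 lower, beside 9.02% and 5.49% of all IDs. The median log2 fold change (log2FC, PSGL1_KO minus vector) of the 6 genes was 0.30, against 0.16 over name-checked IDs and -0.02 over all IDs. In bulk samples, more cells of a type and more RNA per cell cannot be told apart.

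**Figure D1:**
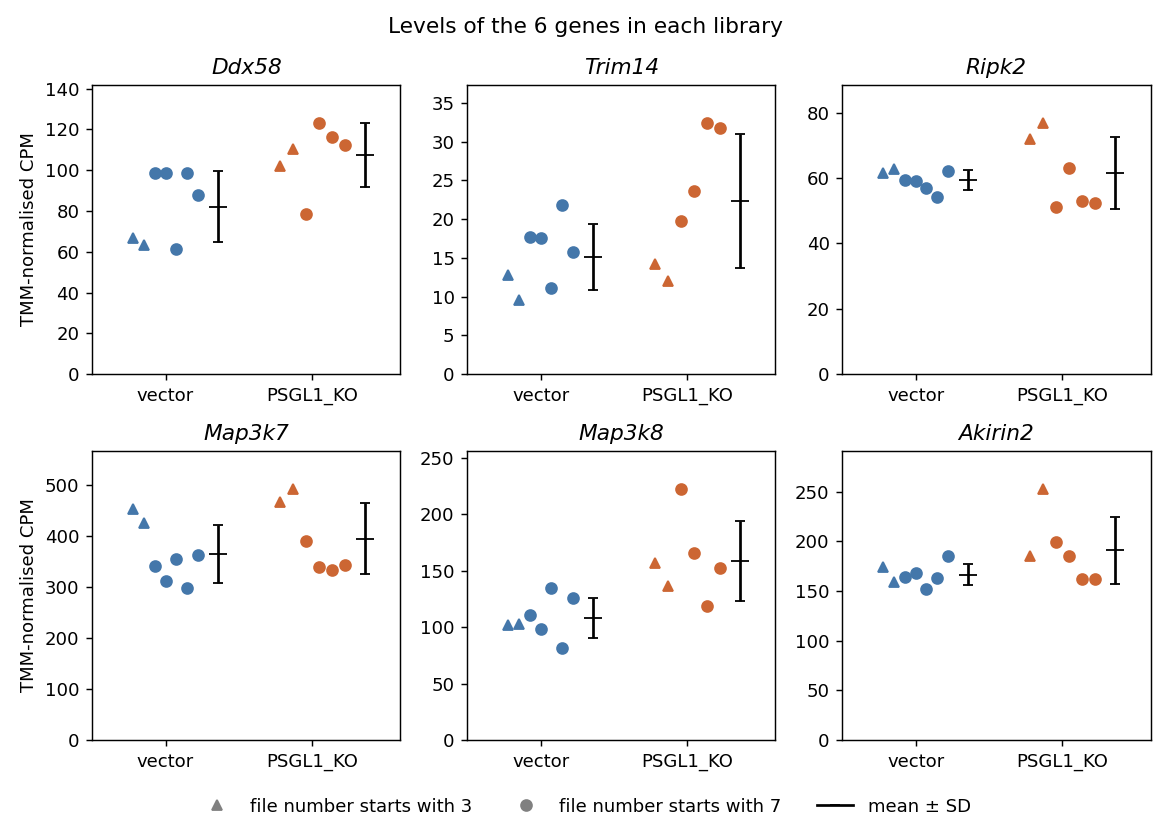
Each panel shows 1 gene, with TMM-normalised CPM on the vertical axis and the 7 vector and 6 PSGL1_KO libraries as points, triangles for file number 3 and circles for file number 7; black bars are mean ± SD over libraries. For Map3k8 and Ddx58, 5 of 6 PSGL1_KO libraries lie above every vector library, and for Map3k7 and Ripk2 both PSGL1_KO triangles lie above every PSGL1_KO circle.

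Of the RNA-sensing pair, Ddx58 (ENSMUSG00000040296.16, GRCm38 chromosome 4, 40203773 to 40239828, minus strand, protein-coding; Rigi in newer tables) encodes the RNA helicase RIG-I itself. In vector libraries its level was 61.2 at the lowest, 87.8 at the median and 98.7 TMM-normalised CPM at the highest. In PSGL1_KO libraries these values were 78.8, 112 and 123 CPM. The groups overlapped only through PSGL1_KO replicate 3, the lowest of its group, and the other 5 PSGL1_KO libraries, at 102 CPM or more, were above all 7 vector libraries. Means were 82.2 ± 17.6 CPM (SD, n = 7) and 107.3 ± 15.6 CPM (SD, n = 6). The fitted log2FC was 0.41 ± 0.14 (SE; edgeR, adjusted p = 0.029), a fitted fold of 1.33. With the group as the only term the log2FC was 0.39 and adjusted p = 0.11, so over all 13 libraries Ddx58 passed with the covariate and not without it. The covariate was chosen knowing this.

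Ddx58 passed in 1 of the 2 sets of libraries, and a difference between the sets was not shown. Within file number 3 it had 66.9 and 63.6 CPM in vector and 102 and 110.6 CPM in PSGL1_KO libraries (log2FC 0.74, adjusted p = 0.0029). Within file number 7 vector libraries ranged from 61.2 to 98.7 CPM and PSGL1_KO ones from 78.8 to 123 CPM (log2FC 0.28, adjusted p = 0.24). The test of the difference between file numbers (7 minus 3) gave -0.45 (edgeR, adjusted p = 0.43), in a fit in which 1.65% of all IDs passed. Vector replicate 5 had the lowest Ddx58 of its group, as PSGL1_KO replicate 3 had of its own. Both had the lowest summed stromal markers, a sum made up mostly of Col1a2, though not every marker of that list was lowest there. Without both libraries, an alternative chosen after seeing the data, the log2FC was 0.45 with adjusted p = 0.0029. Ddx58 no longer passed, at adjusted p from 0.055 to 0.086, when a single library was left out in 7 of 13 cases: vector 1, 2 or 7, and PSGL1_KO 1, 2, 4 or 5.

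Trim14 (ENSMUSG00000039853.19, chromosome 4, 46493781 to 46536141, minus strand) encodes a tripartite-motif protein that sits on mitochondria and acts as an adaptor of MAVS. It was the least abundant of the 6 genes, with 44 to 193 counts per library. Vector libraries had 9.58 CPM at the lowest, 15.7 at the median and 21.8 at the highest, and PSGL1_KO libraries 12.01, 21.7 and 32.4 CPM. The groups overlapped, with 3 of 6 PSGL1_KO libraries above every vector library, and these were the replicates 4, 5 and 6 of file number 7. Means were 15.2 ± 4.26 (SD, n = 7) and 22.3 ± 8.62 CPM (SD, n = 6), and the log2FC was 0.56 ± 0.18 (edgeR, adjusted p = 0.026). Group alone gave 0.57 with adjusted p = 0.14.

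Trim14 also differed between file numbers. Libraries of file number 7 were higher than those of file number 3 by a log2 difference of 0.81 ± 0.21, with adjusted p = 0.0038 in the edgeR test with group in the model. Of all IDs 20.2% were higher and 18.2% lower in file number 7, and of name-checked IDs 12.4% and 32%. The group difference passed within file number 7, at 0.68 with adjusted p = 0.030, and not within file number 3, at 0.27 with adjusted p = 0.61 (14.3 and 12.01 CPM against 12.8 and 9.58 CPM). The test of the difference between file numbers gave 0.42 with adjusted p = 0.64. It did not pass in 5 of 13 fits with 1 library left out (vector 3, 4 or 7, PSGL1_KO 5 or 6), at adjusted p from 0.051 to 0.082.

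Exons of Trim14 overlap genes on the other strand. Of its 4338 merged exon bases, 1356 (31.3%) overlap exons of Nans, the sialic acid synthase gene, 163 (3.8%) overlap the noncoding Gm16731, and 131 (3.0%) the small nucleolar RNA Gm22247. Without a stated strand setting, reads over these bases cannot be told apart. Nans did not pass (log2FC -0.10, adjusted p = 0.61), with 320.0 ± 54.6 CPM in the vector group and 297.5 ± 46.8 CPM under knockout. Gm16731 had 4.4 to 6.4 CPM in vector and 14.0 to 25.6 CPM in PSGL1_KO libraries, so that the groups did not overlap, and the log2FC was 1.84 ± 0.19 (edgeR, adjusted p = 1.4e-07). Groups with all PSGL1_KO libraries on top made up 3.96% of all IDs and 8.88% of name-checked IDs. The part of Gm16731 in the Trim14 counts was not tested.

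**Figure D2:**
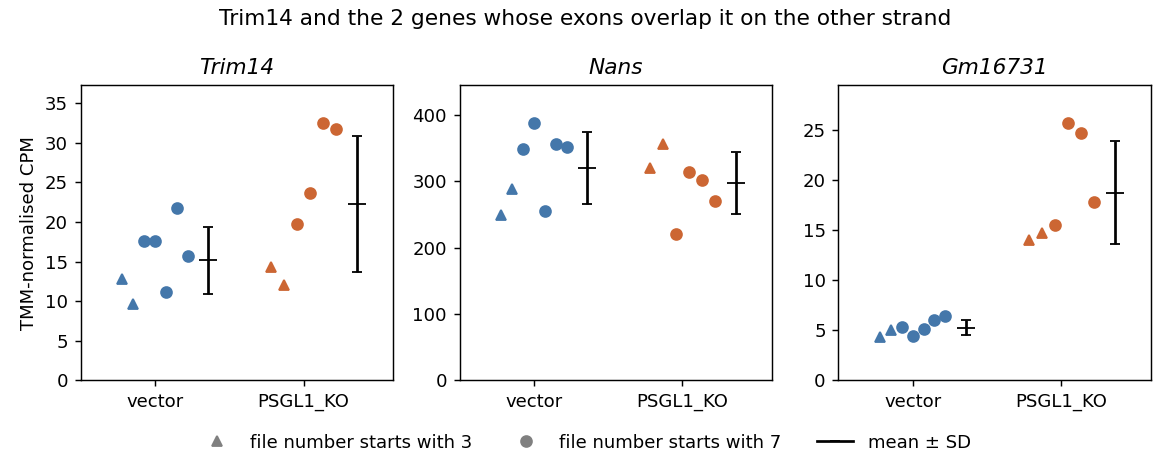
TMM-normalised CPM of Trim14, Nans and Gm16731 in each library, with triangles for file number 3, circles for file number 7 and black bars for mean ± SD. Gm16731 is at 14.0 CPM or more in all 6 PSGL1_KO libraries and at 6.4 CPM or less in all 7 vector libraries, while Trim14 and Nans overlap between groups.

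Ripk2 (ENSMUSG00000041135.16, chromosome 4, 16122733 to 16163647, minus strand) encodes the kinase and adaptor that links NOD receptors to TAK1. Its vector libraries lay close together, at 54.3, 59.5 and 62.7 CPM for the lowest, the median and the highest. PSGL1_KO libraries spread wider, at 51.2, 58.1 and 77.0 CPM. Of the 6 PSGL1_KO libraries 3 lay above every vector library and the other 3 below every one. The 2 of file number 3 were the highest, at 72.0 and 77.0 CPM, and the 4 of file number 7 had 51.2 to 63.1 CPM. Means were 59.4 ± 3.02 (SD, n = 7) and 61.5 ± 11.1 CPM (SD, n = 6), and the log2FC was 0.02 (95% interval -0.20 to 0.25; edgeR, adjusted p = 0.91). Its log2FC was 0.30 within file number 3 and -0.08 within file number 7, and neither passed (adjusted p = 0.33 and 0.68). The difference between them, -0.37 ± 0.22, did not pass either, with adjusted p = 0.41, and unadjusted p = 0.11 in the edgeR test. The sign of the pooled value also turned with the scaling and when single libraries were left out.

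Map3k7 (ENSMUSG00000028284.14, chromosome 4, 31964097 to 32023467, plus strand) encodes TAK1, the kinase at which the NOD, Toll-like, interleukin 1 and TNF receptor routes meet. It had the most counts of the 6 genes, from 1399 to 2098 per library. Vector libraries had 298.2 CPM at the lowest, 355 at the median and 452 at the highest, and PSGL1_KO libraries 333, 367 and 493 CPM. The groups overlapped almost fully, and the high libraries in each were those of file number 3, at 452 and 426 CPM in vector and 467 and 493 CPM in PSGL1_KO. The log2FC between groups was 0.09 (95% interval -0.11 to 0.29; edgeR, adjusted p = 0.52), so that a change of 2-fold lies outside the interval. Between file numbers it differed by -0.42 ± 0.10 (7 minus 3), with adjusted p = 0.0025 in the edgeR test. Map3k7 and Trim14 were the 2 of the 6 genes that passed between file numbers, in opposite directions.

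Map3k8 (ENSMUSG00000024235.12, chromosome 18, 4331327 to 4353015, minus strand) encodes TPL2, the kinase that carries Toll-like and TNF receptor signals to ERK. In vector libraries its level was 81.0 CPM at the lowest, 103 at the median and 135 at the highest. In PSGL1_KO libraries these were 118, 154 and 222.5 CPM. The groups overlapped through PSGL1_KO replicate 5, which was below vector replicates 5 and 7, and the other 5 PSGL1_KO libraries were above all 7 vector libraries. Means rose from 107.8 ± 17.9 (SD, n = 7) to 158.5 ± 35.4 CPM (SD, n = 6). The log2FC was 0.56 ± 0.14 (edgeR, adjusted p = 0.0040), a fitted fold of 1.48. No exon of another gene overlapped its exons.

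The rise of Map3k8 passed in both sets of libraries. It was 0.58 within file number 7 (adjusted p = 0.028) and 0.55 within file number 3 (adjusted p = 0.026), with 102 and 103 CPM in vector against 157 and 136.5 CPM in PSGL1_KO libraries of the latter. The test of the difference between file numbers gave 0.05 ± 0.29 with adjusted p = 0.95. With the group alone the log2FC was 0.56 with adjusted p = 0.023. Map3k8 was highest where Ddx58 was lowest, in replicate 5 of the vector group (135 CPM) and replicate 3 of PSGL1_KO (222.5 CPM), and without these 2 libraries it had 0.51 with adjusted p = 0.0030. With any single library left out the log2FC stayed between 0.44 and 0.65, with adjusted p of at most 0.014.

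Akirin2 (ENSMUSG00000028291.8, chromosome 4, 34550937 to 34566908, plus strand) encodes a nuclear protein that links NF-kB to chromatin remodelling at a subset of its targets and also brings proteasomes into the nucleus. Its vector libraries had 151.5 CPM at the lowest, 164 at the median and 185 at the highest, and its PSGL1_KO libraries 162, 185 and 253 CPM. The groups overlapped, with 3 of 6 PSGL1_KO libraries above the vector group, of which PSGL1_KO replicate 2 was far the highest. The log2FC was 0.19 ± 0.11 (95% interval -0.04 to 0.41; edgeR, adjusted p = 0.22). It was 0.43 within file number 3 (adjusted p = 0.086) and 0.09 within file number 7 (adjusted p = 0.60), and the difference between them did not pass (adjusted p = 0.47).

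The balance of directions among the 6 genes depended on the scaling. With TMM factors taken from name-checked nuclear genes alone, the median log2FC of all IDs moved from -0.02 to -0.21, and 1005 IDs were called higher and 2655 lower, in place of 1513 and 1301. The share of calls that were higher fell from 53.8% to 27.5%. Map3k8 still passed, at 0.38 with adjusted p = 0.036, while Ddx58 (0.21, adjusted p = 0.22) and Trim14 (0.38, adjusted p = 0.16) did not. The signs of Ripk2 (-0.17), Map3k7 (-0.10) and Akirin2 (-0.01) turned, and none of these 3 passed under either scaling.

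**Figure D3:**
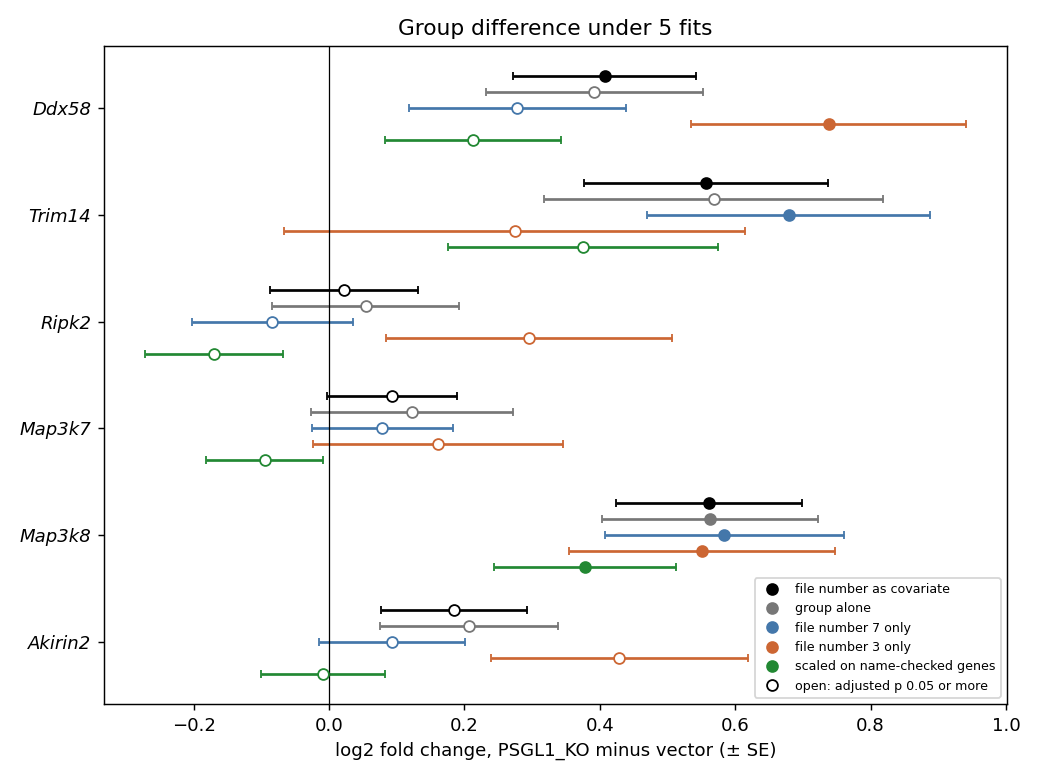
Log2 fold change of PSGL1_KO minus vector with its SE for each gene under 5 fits, filled where the adjusted p is below 0.05. Map3k8 is filled in all 5 fits, from 0.38 to 0.58, whereas Ddx58 and Trim14 are each filled in 2 of the 5 and the remaining genes in none.

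Markers of other cell types are given beside these results, and only some moved with the groups. The summed levels of the macrophage and B-cell lists did not overlap between groups, and those of the other lists did. Among single IDs, all PSGL1_KO libraries were on top in 3.96% of all and 8.88% of name-checked IDs. Of name-checked IDs 28.5% were higher and 9.35% lower. The 3 name-checked macrophage markers, of 12 listed, all rose, namely Tfec, Lyn and Atp6v0d2, and their summed level was 68.1 to 157.7 CPM in vector and 291 to 518.2 CPM in PSGL1_KO libraries. Of 8 name-checked stromal markers among 13 listed 6 were tested and 2 rose, Sdc2 and Lpar1, with sums of 744 to 2304 CPM and 843 to 4283 CPM. Most of each stromal sum was Col1a2, which did not pass. Of 2 name-checked B-cell markers among 8 listed Cd72 rose and Pax5, with adjusted p = 0.056, did not pass, with sums of 29.7 to 77.9 CPM and 151.8 to 320.3 CPM. In PSGL1_KO libraries Lyn (mean 245.7 CPM) and Cd72 (mean 229.5 CPM) were the largest parts of the macrophage and B-cell sums. Taken singly, Lyn, Tfec and Cd72 did not overlap between groups, whereas Atp6v0d2 and Pax5 did. Of the exon bases of Cd72 41.6% overlap Tesk1 on the other strand, which was itself higher (log2FC 1.87), and the part of Tesk1 in the Cd72 counts was not tested. Of 4 T-cell markers among 12 listed Bach2, at only 1.82 and 4.11 CPM, rose and Sit1 fell, with sums of 431 to 609.5 CPM and 361 to 553.3 CPM. The single endothelial marker, Cav1, and the 4 name-checked cycling markers did not pass, with sums of 78.7 to 153.5 and 37.6 to 315.3 CPM for the first and 734 to 1338 and 666 to 1198 CPM for the second. No dendritic-cell or neutrophil marker of the lists was name-checked. The part of these shifts in the levels of Map3k8, Ddx58 and Trim14 was not tested.

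Other genes of the pathway came from 8 lists of 167 names, of which 31 were name-checked and 28 tested, 22 beside the 6 genes. In the edgeR test 9 of these 22 were higher in PSGL1_KO, 0 were lower and 13 did not pass, with a median log2FC of 0.28. With scaling on name-checked nuclear genes 6 of the 22 were higher and 4 lower, the latter being Nsmaf, Zfr, Ube2j1 and Otulin. That scaling gave 1005 higher and 2655 lower calls over the 11188 IDs tested. In the main fit 28.5% of name-checked IDs were higher and 9.35% lower. The count depends on which stretches are kept: under the other settings tried that kept any, 8 of 25, 4 of 16 and 8 of 20 such genes were higher and 1, 0 and 0 lower, so the setting used gives the highest share. Upstream of TAK1 the TGF-beta receptor kinase Tgfbr1 rose from 109.3 to 203.7 CPM (0.89, adjusted p = 8.6e-07), the pseudoreceptor Bambi from 4.67 to 11.9 CPM (1.26, adjusted p = 0.0024) and the scaffold Sdcbp, or syntenin, which shares 78 exon bases with Nsmaf, from 800.3 to 1210 CPM (0.56, adjusted p = 0.00092). The other genes of that list did not pass, the TNF-receptor adaptor Nsmaf (-0.26), Casp8ap2 (-0.07) and Chmp5 (0.30). Within file number 7 Bambi did not pass, at 0.78 with adjusted p = 0.079.

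Next to RIG-I, the interferon-induced tudor-domain gene Tdrd7 was the single tested member of the interferon list. It rose from 80.4 ± 11.1 to 119.6 ± 11.3 CPM (log2FC 0.58, adjusted p = 0.00047), with 6 of 6 PSGL1_KO libraries above every vector library. The same held for 3.96% of all IDs and 8.88% of name-checked IDs. Zfr had -0.16 and Polr2k, a subunit shared by the RNA polymerases, 0.18, and neither passed. Of the list around the IkB kinases, 0 of 3 tested members were called, among them Akirin2 and Mtdh, which had 0.23. Calls over all IDs were 13.5% higher and 11.6% lower, and over name-checked IDs 28.5% and 9.35%. With 3 genes, 0 calls cannot be told from these shares. No gene of the IkB kinases or of the NF-kB subunits was name-checked.

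Of the 7 ubiquitin genes tested 1 was called, Wwp1, a HECT-type ligase, which rose with 0.40 and adjusted p = 0.0063. Calls over all IDs were 13.5% higher and 11.6% lower, and over name-checked IDs 28.5% and 9.35%, so 1 of 7 does not set this list apart. The linear-chain deubiquitinase Otulin had -0.15, Ube2j1 -0.11, Ube2r2 0.13, Otud6b 0.19 and Vcp, the segregase, 0.41 with adjusted p = 0.069. Wwp1 did not pass in 4 of 10 alternatives, among them the group alone (0.43, adjusted p = 0.081), scaling on name-checked genes (0.21, adjusted p = 0.092) and file number 3 alone (0.44, adjusted p = 0.071).

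All 4 tested genes of the target list, which held 24 names, passed as higher in the main test. Of name-checked IDs 28.5% and of all IDs 13.5% were higher, and the list was drawn up with earlier results known. Among the 4 only Nr4a3 passed in every alternative run. The nuclear receptor Nr4a3 rose from 8.29 to 17.6 CPM, with 6 of 6 PSGL1_KO libraries on top (log2FC 1.07, adjusted p = 0.00026). All PSGL1_KO libraries were on top in 3.96% of all IDs and 8.88% of name-checked IDs. The chemokine Ccl27a, at only 1.58 and 4.21 CPM, had 1.36 with adjusted p = 0.016, and its exons overlap Il11ra1 by 8 bases on the other strand. Klf4 had 0.80 with adjusted p = 0.047 and Klf10, at the edge of its stretch, 0.31 with adjusted p = 0.044. Ccl27a did not pass within file number 7 (adjusted p = 0.080) or without PSGL1_KO replicate 2 (adjusted p = 0.060). Klf4 did not pass with the group alone (adjusted p = 0.075), with scaling on name-checked genes (0.103) or within file number 7 (0.195), nor in 9 of 13 fits that left out 1 library. Klf10 passed in 3 of 10 alternatives and in 3 of the 13 fits that left out 1 library. Ccl19, Ccl21a and Ifnk were name-checked but too low to test.

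**Figure D4:**
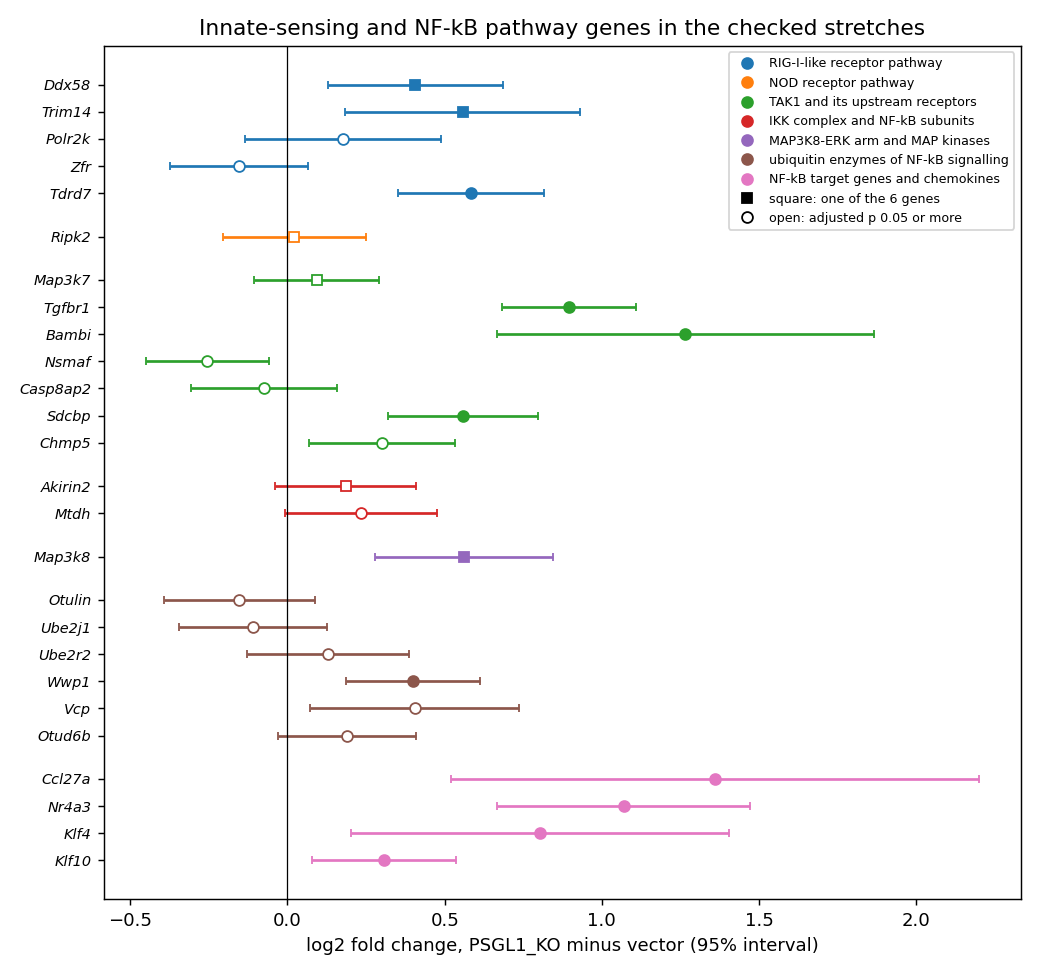
Log2 fold change of PSGL1_KO minus vector with 95% intervals for 26 of the 28 tested pathway genes, coloured by list, with squares for the 6 genes and open symbols where the adjusted p is 0.05 or more. Filled symbols, 12 in all, lie to the right of 0, from 0.31 for Klf10 to 1.36 for Ccl27a, and no gene left of 0 is filled.

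Once group and file number were removed, the 6 genes did not vary as a block. Over the 13 libraries the residual log2 levels of Map3k7 and Map3k8 had a Pearson r of 0.83, those of Ddx58 and Trim14 0.52, and those of Ddx58 and Map3k8 -0.71 and Trim14 and Map3k8 -0.74. These values describe libraries that share depth and scaling, with vector replicate 5 and PSGL1_KO replicate 3 at the ends of Ddx58. Among 267 name-checked protein-coding genes of at least 20 CPM, the genes nearest to Ddx58 were Aco1 (0.96), 1700022I11Rik (0.95) and Vcp (0.93), and Aco1 starts 0.06 Mb from it. Exons of 1700022I11Rik and Vcp overlap on opposite strands, over 7.3% of the exon bases of Vcp, and whether they share reads was not tested. Nearest to Ripk2 were Ankrd46 (0.90), Rab2a (0.90) and 2610001J05Rik (0.89), and nearest to Map3k7 were Rbm12b2 (0.87), Bet1 (0.87) and Tstd3 (0.86). Map3k8 was nearest to 2610301B20Rik (0.91), Map3k7 (0.83) and Spag1 (0.82), and Akirin2 to Smim27 (0.90), Sub1 (0.87) and Ndufa4 (0.86). Trim14 had no near neighbour, with 1810049J17Rik (0.66), Tln1 (0.63) and Virma (0.58) the highest of 268.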

How the data were processed

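For each of the 13 libraries the authors deposited raw counts by versioned Ensembl gene ID. HISAT2, SAMtools, HTSeq and mm10 are named per the submitters' processing notes, without versions; annotation release and strand setting are not stated there. The 5 HTSeq summary rows were left out, the largest of them, reads over no feature, holding 67.3% to 75.4% of each file's total, and gene IDs 10.45% to 12.49%. Symbols and coordinates came from GENCODE M21 on GRCm38, in which 52073 of 56923 IDs matched without version. Names were used in stretches found by a 2-state hidden Markov model over CPM classes of protein-coding genes (limits 2, 20 and 100 CPM) with all rates set by hand, a posterior above 0.99, at least 5 Mb and 20 genes, gaps under 2 Mb joined, and no housekeeping gene under 20 CPM within 1 Mb. This was the fifth setting tried, and each change was made after seeing which stretches and genes the last one kept. The aim was to recover 4 stretches known from earlier work on these data, so it is no independent check of them. The earlier settings kept 0, 12, 5 and 6 stretches; under the one with 5, Trim14 fell outside. The joining of gaps and the 1 Mb margin were added last, the margin in order to drop a stretch on chromosome 2, and depart from the rule as first written. The tests of the 6 genes were fitted on all IDs and do not use the stretches; the name-checked background, the pathway counts, the likeness and 1 scaling do.

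Counts were fitted with edgeR 4.0.16 in R 4.3.3 (TMM, filterByExpr, robust quasi-likelihood, two-sided, Benjamini-Hochberg over 11188 IDs), with group and the first file-number digit as terms. On simulated data of this design, run on 10887 genes, 2-fold changes were recovered for 87 of 97 genes and 4-fold ones for 99 of 99, and 14 of 10691 unchanged genes were called. The simulation gave all genes the same dispersion and no difference between file numbers, and held no change below 2-fold. It therefore does not say how reliably the smaller differences of the 6 genes are called. The common biological coefficient of variation was 21.6%. No 2 libraries of a group agreed within sampling noise (lowest mean chi-square 2.99 per ID). DESeq2 1.42.0 was an alternative. Named were the 6 genes, every tested pathway-list gene in a stretch but 2 that are not reported here, though the counts include them, and for likeness the 3 genes with the highest r per gene. The 6 genes, the lists and the covariate, with which Ddx58 and Trim14 pass and without which they do not, were chosen with earlier results of these data known. Promoter motifs were chosen after the sequences had been seen.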

Additional observations from a re-analysis of the deposited data

How the results depend on the processing

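With the file number left out of the model Ddx58 had a log2FC of 0.39 and Trim14 0.57, neither passing, 1 of the 6 genes was higher and calls over all IDs were 940 higher and 572 lower. Scaling on name-checked nuclear genes gave 0.21 for Ddx58 and 0.38 (0.375) for Trim14, neither passing, -0.17 for Ripk2, -0.10 (-0.095) for Map3k7 and -0.01 (-0.009) for Akirin2, 1 of the 6 genes higher, 6 other pathway genes higher and 4 lower, and 1005 higher and 2655 lower calls over all IDs; of single other genes it turned Ube2r2 to -0.067 and Polr2k to -0.018. Within file number 7 Ddx58 had 0.28, Ripk2 -0.084 and 5 other pathway genes were higher, and Casp8ap2 turned to 0.073 and Ube2r2 to -0.051. Within file number 3 Trim14 had 0.27, Ube2j1 turned to 0.21 and Otulin to 0.18. With DESeq2 1 other pathway gene, Nsmaf, was lower. The cause of these changes was not tested.

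A pairing of libraries by replicate number was not shown. Deviations from group means of same-numbered libraries had correlations from -0.02 to 0.53. Once file number was removed, 0 of 6 PSGL1_KO libraries were nearest their own number. This cannot exclude a pairing, because the removal forces the residuals of each file-number set to sum to 0, and file number 3 has only 2 libraries per group. With the replicate number as a block Ddx58 had 0.40, Trim14 0.51, 1 of the 6 genes was higher, and Wwp1 had 0.39 with adjusted p = 0.0501.

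Leaving out 1 library at a time gave 0.34 to 0.51 for Ddx58 (0.341 to 0.505), 0.47 to 0.63 for Trim14, -0.034 to 0.058 for Ripk2, 0.06 to 0.12 for Map3k7, 0.44 to 0.65 for Map3k8 and 0.09 (0.085) to 0.23 for Akirin2. The genes of the 6 called higher were 1 to 3, with 1 left without vector replicate 7 or PSGL1_KO replicate 5, other pathway genes 6 to 9 higher and 0 to 1 lower, and all IDs 1293 to 1669 higher and 1062 to 1375 lower. Ripk2 was negative when vector replicate 1 (-0.014) or vector replicate 2 (-0.009) was left out, and likewise PSGL1_KO replicate 2 (-0.034) or PSGL1_KO replicate 4 (-0.010), and Casp8ap2, from -0.128 to 0.003, was positive without vector replicate 1. DESeq2, RLE factors, no mitochondrial IDs and no count filter kept the call of each of the 6 genes. Depth limits Trim14 most, at 44 to 193 counts per library.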

Other observations

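Of the 22 other pathway genes 13 differed between file numbers in the edgeR test with group in the model, 1 higher and 12 lower in file number 7, where 20.2% of all IDs were higher and 18.2% lower, and 12.4% and 32% of name-checked IDs. The higher one was Ube2r2, a ubiquitin-conjugating enzyme, with a log2 difference of 1.17 and adjusted p = 3.3e-06. Among the lower ones were Casp8ap2 (-0.93), Otud6b (-0.90), Polr2k (-0.83), Mtdh (-0.80) and Tgfbr1 (-0.80). The group difference itself passed the test of a difference between file numbers in 0 of these 22 genes and in 0 of the 6, with adjusted p from 0.095 and from 0.41 upwards, and 1.65% of all IDs passed it.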
